A study of Homo sapiens with 8 samples.

Results

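The proneural basic helix-loop-helix (bHLH) factors described here are 8 genes chosen by name, NEUROG1, NEUROG2, ATOH1, NEUROD1, NEUROD2, NEUROD4, NEUROD6 and NHLH1, out of 19821 protein-coding genes (chromosomes 1 to 22 and X). Each was examined over its body and 20 kb to each side. The cells were neural progenitors induced from the established human embryonic stem cell line H9. The stem cells had been infected with a lentivirus carrying sh1 or sh4, hairpins against KDM2A, or a control (NC), and had been selected with puromycin. All 3 kinds of cell had thus met virus and drug alike. H3K36me2 was precipitated in the sh1, the sh4 and the control cells, and KDM2A in control cells alone, with 1 library in each of these 4 groups. Replicate error is therefore unknown throughout, and differences between groups were not testable.

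Proneural bHLH factors are transcription activators that pair with broadly expressed E proteins and bind the E-box, a short palindromic DNA element. The neurogenins and ATOH1 commit progenitors to a neuronal fate and switch on Notch ligands, and Notch signalling in neighbouring cells then restrains the same genes through HES repressors. The NEUROD genes and NHLH1 act later, as newborn neurons differentiate. KDM2A is a demethylase that removes the dimethyl mark from lysine 36 of histone H3 (H3K36me2), and it reaches chromatin through a zinc finger that reads unmethylated CpG.

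The deposited KDM2A list held 504724 peaks and applied no limit on the false discovery rate (FDR), which reached 0.869. The H3K36me2 lists held 19501 regions in sh1, 21493 in sh4 and 19691 in the control, and every region had an FDR under 1e-05. Peak lists hold no expression values, so neither the loss of KDM2A nor the progenitor identity of the cells could be checked in them. KDM2A peaks with an FDR under 0.05 lay in the windows of 1 of 4 progenitor markers (SOX1, among SOX1, SOX2, PAX6 and NES) and 1 of 2 stem cell markers (POU5F1, with NANOG the other). Of all protein-coding genes, 38.0% had such a peak in the same kind of window, so these counts do not set the markers apart. An H3K36me2 region lay in the window of SOX2 alone among these 6, in sh1 and in sh4. Over all protein-coding genes the share was 22.9% in sh1, 21.5% in sh4 and 30.2% in the control, so 6 genes cannot separate the libraries.

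All 8 genes had KDM2A peaks in their windows, 83 peaks in total and 4 to 13 per gene. This separates few genes, since 99.9% of all protein-coding genes and 99.6% of the short ones (6434 genes no longer than 12223 bp, the longest of the 8) had at least 1 peak in the same kind of window. Fold enrichment, a linear ratio of immunoprecipitate (IP) to local background, ran over the 83 peaks between 1.64 and 3.71 with a median of 2.42, against 2.33 in the whole list. The pileup, the height of stacked fragments, ran between 5 and 12 with a median of 8, the same as in the whole list. Width ran between 151 and 630 bp with a median of 223 bp, against 215 bp. The peaks at proneural genes were thus low peaks of ordinary height and width for this library, and 3 of the 83 (3.61%) had an FDR under 0.05, against 3.13% of the whole list.

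Those 3 peaks lay at NEUROG1, ATOH1 and NEUROD1. They made 3 of 8 genes (37.5%, exact binomial interval 8.52 to 75.5%, counting error only) against 38.0% of all protein-coding genes and 28.2% of the short ones. The count for the proneural genes was therefore close to the background. A peak overlapped the body of each of the 8 genes, against 90.1% of all protein-coding genes and 72.4% of the short ones. Of the 83 peaks, 14 lay on gene bodies, 28 upstream and 41 downstream.

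**Figure D1:**
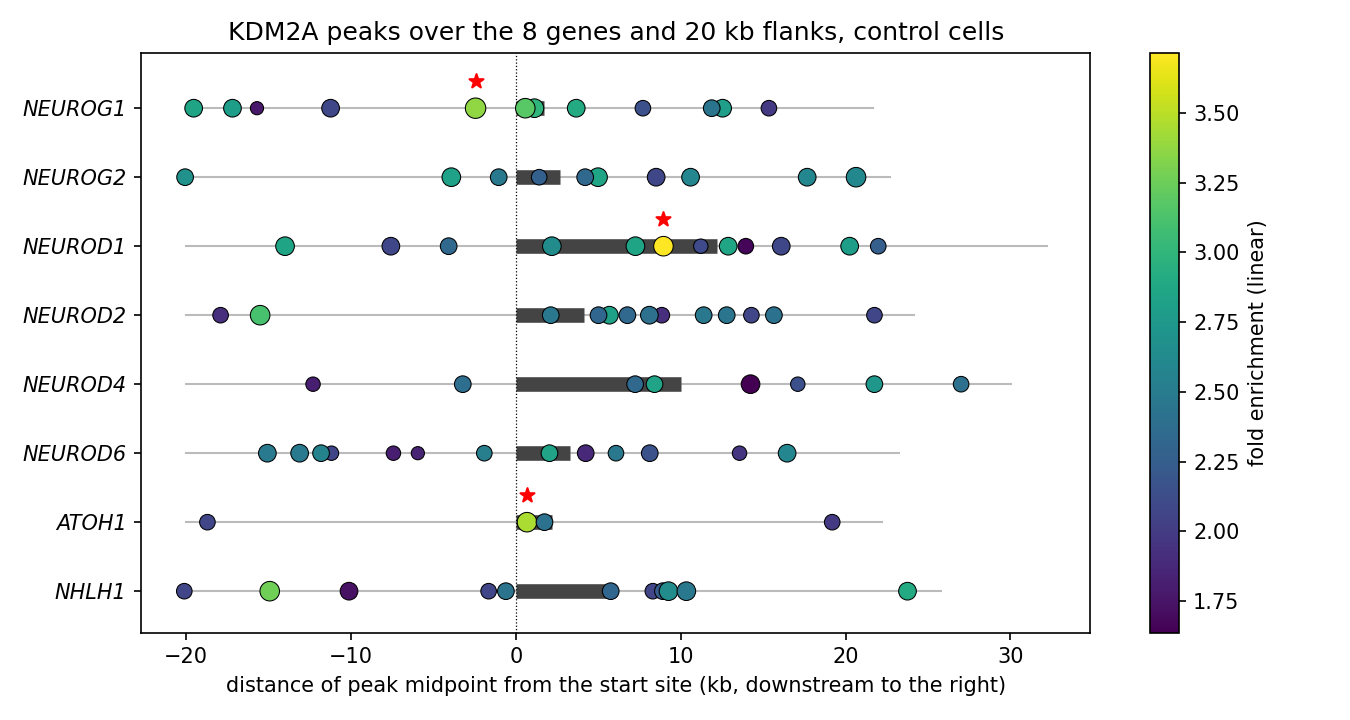
KDM2A peaks (circles) along the 8 genes (rows), by distance of the peak midpoint from the start site in kb. Dark bars are gene bodies, grey lines the windows, colour is fold enrichment, circle area grows with pileup, and red stars mark the 3 peaks with an FDR under 0.05, at NEUROG1, NEUROD1 and ATOH1.

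Peaks on the bodies were denser than in the flanks, at 3.33 per 10 kb over 42.0 kb of gene body and 2.16 per 10 kb in the flanks. Short protein-coding genes as a whole showed the same order, with 2.82 per 10 kb of body and 2.21 per 10 kb of flank. The median fold was 2.74 on the 14 body peaks and 2.40 on the 69 flank peaks. Neither difference was tested.

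NEUROG1, which starts neurogenesis in sensory and dorsal precursors, lies on the minus strand of chromosome 5 at 135534282 to 135535964 (gene 4762, GRCh38). Its window held 12 KDM2A peaks, 2 on the body, 5 upstream and 5 downstream. The highest, at 135538322 to 135538496 and 2358 bp upstream of the start, had a fold of 3.37, a pileup of 12 and an FDR of 0.0454. It was the highest pileup of all 83 peaks. On the body, a peak of 577 bp began 283 bp after the start with a fold of 3.18, a pileup of 11 and an FDR of 0.0840, and a peak of 160 bp began 1046 bp after it with a fold of 2.99 and an FDR of 0.145. The 3 strongest peaks of NEUROG1 thus lay at most 2358 bp from its start. The other 9 peaks had folds of at most 2.90, and the widest of the 83 peaks, 630 bp with a fold of 2.44, lay 9884 bp beyond the 3' end. No other annotated gene lay in this window.

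NEUROG2, the neurogenin of cortical progenitors, lies on the minus strand of chromosome 4 at 112513516 to 112516180 (gene 63973). It had 10 KDM2A peaks, 1 on the body, 3 upstream and 6 downstream, with folds between 2.08 and 2.85 and a lowest FDR of 0.186. Unlike at NEUROG1, none of these peaks reached the FDR limit. The peak nearest to the start lay 889 bp upstream with a fold of 2.48 and a pileup of 8. The body peak lay 1273 bp after the start with a fold of 2.26. The noncoding antisense gene NEUROG2-AS1 overlaps NEUROG2 and held 3 of the upstream peaks, and ChIP carries no strand to divide signal between them.

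ATOH1, which drives hair cells, cerebellar granule neurons and spinal interneurons, lies on the plus strand of chromosome 4 at 93828753 to 93830964 (gene 474). It had 4 KDM2A peaks, the fewest of the 8 genes, and 2 of them lay on its body of 2212 bp. The body peak at 93829316 to 93829538 began 563 bp after the start and had a fold of 3.45, a pileup of 11 and an FDR of 0.0461. The other body peak began 1650 bp after the start, with a fold of 2.41, a pileup of 8 and an FDR of 0.437. The remaining pair lay 18532 bp upstream and 19113 bp downstream of the start, each with a pileup of 7 and folds of 2.07 and 1.99. Between the gene and these outer peaks no peak was listed.

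NEUROD1, which carries neuronal precursors into differentiation and also acts in pancreatic islets, is the longest of the 8 genes, on the minus strand of chromosome 2 at 181668295 to 181680517 (gene 4760). Of its 12 KDM2A peaks, 4 lay on the body, 3 upstream and 5 downstream. The peak at 181671462 to 181671669 had the highest fold of all 83 peaks, 3.71, with a pileup of 11 and an FDR of 0.0234. It lay inside the gene, 8848 bp after the start. The other body peaks began 2050, 7171 and 11062 bp after the start with folds of 2.64, 2.85 and 2.10. No peak lay within 2 kb of the start of NEUROD1, so its strongest KDM2A signal was not at the start site.

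NEUROD2, a factor of cortical projection neurons, lies on the minus strand of chromosome 17 at 39603768 to 39607920 (gene 4761). Its 13 peaks were uneven, with 10 downstream, 1 on the body and 2 upstream. Their folds ran between 1.92 and 3.11. The highest lay 15382 bp upstream of the start with a pileup of 11 and an FDR of 0.102. The body peak was 548 bp wide, began 1842 bp after the start and had a fold of 2.47 and a pileup of 8. Wide peaks of 418 and 526 bp lay 652 and 3684 bp beyond the 3' end, so 3 of the 9 proneural peaks of 400 bp or more belonged to this gene.

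NEUROD6, a factor of excitatory cortical neurons, lies on the minus strand of chromosome 7 at 31337465 to 31340726 (gene 63974). It also had 13 peaks, 7 upstream, 1 on the body and 5 downstream, and their pileups ran from 5 to 9. The body peak had the highest fold, 2.84, with a pileup of 8, an FDR of 0.273 and a width of 446 bp. The peak nearest to the start lay 1776 bp upstream with a fold of 2.52. NEUROD6 thus combined the highest number of peaks per length with the lowest highest pileup of the 8 genes.

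NEUROD4, an early differentiation factor of retinal and other neurons, lies on the plus strand of chromosome 12 at 55019974 to 55030017 (gene 58158). It had 8 peaks, 2 on the body, 2 upstream and 4 downstream. The peak with the highest fold, 2.84, began 8330 bp after the start with a pileup of 8 and an FDR of 0.273. The highest pileup, 10, belonged to a peak 4081 bp beyond the 3' end with a fold of 1.64. The peak nearest to the start lay 3133 bp upstream with a fold of 2.38. This was the greatest distance from a start site to its nearest peak among the 8 genes. The noncoding gene LOC101927484 overlaps NEUROD4 and held 3 of these peaks.

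NHLH1, expressed in neurons as they leave the cell cycle, lies on the plus strand of chromosome 1 at 160367071 to 160372846 (gene 4807). It had 11 peaks, 1 on the body, 5 upstream and 5 downstream. The highest lay 14856 bp upstream with a fold of 3.26, a pileup of 11 and an FDR of 0.0685, within NCSTN, which encodes a subunit of the γ-secretase that cleaves Notch. Closer to the start lay a peak 426 bp upstream, of 360 bp with a fold of 2.43 and a pileup of 8. The strongest signal in the NHLH1 window therefore sat on the neighbouring gene.

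Ordered by number of peaks per 10 kb of window, NEUROD6 (3.0) came before NEUROD2 (2.94), NEUROG1 (2.88), NHLH1 (2.40), NEUROG2 (2.34), NEUROD1 (2.30), NEUROD4 (1.60) and ATOH1 (0.948). The exact Poisson interval, which covers counting error only, was 1.60 to 5.14 for NEUROD6 and 0.258 to 2.43 for ATOH1. These intervals overlapped, but overlap is no test, and the order was not tested. Median density was 2.37 per 10 kb in the proneural genes, 1.95 in all protein-coding genes and 2.2 in the short ones. Of all protein-coding genes, 86.0% had a lower density than NEUROD6 and 6.53% a lower one than ATOH1.

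**Figure D2:**
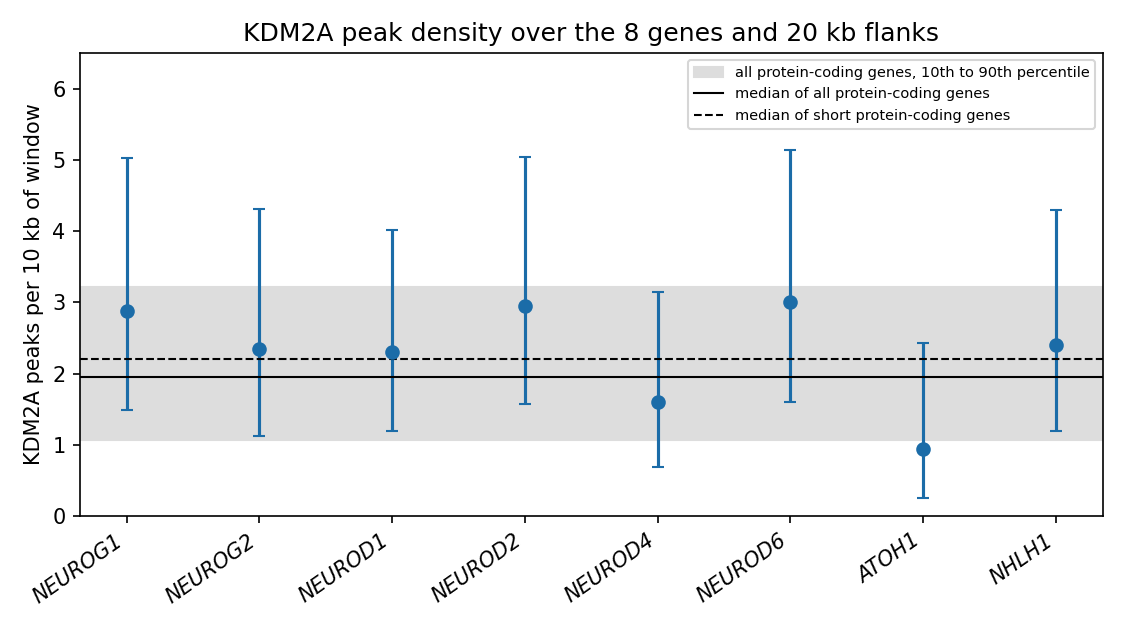
KDM2A peaks per 10 kb of window for each of the 8 genes (points, with exact 95% Poisson intervals) beside all protein-coding genes (grey band and solid line) and the short ones (dashed line). NEUROD4 and ATOH1 lie below both medians, and the interval of every gene includes both median lines.

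The series' design text speaks of KDM2A at the start sites of neuronal genes. Among the proneural genes, 4 of 8 had a peak within 1 kb of the start, namely NEUROG1 (283 bp), NHLH1 (426 bp), ATOH1 (563 bp) and NEUROG2 (889 bp). The share was 51.0% of the 11776 protein-coding genes with a single start site on record, so the proneural count was at the background. Only the ATOH1 peak had an FDR under 0.05, and 2.31% of those genes had such a peak. The median distance from start to nearest peak was 1332 bp in the proneural genes and 950 bp in the larger set.

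Since KDM2A reads CpG, the 300 bases from 250 before to 50 after each start are shown for the genes that bear on this comparison, as RefSeq gives them on GRCh38.p14, and all 8 genes matched an entry. The first 4 are those with a KDM2A peak within 1 kb, and NEUROD1 and NEUROD6 are the CpG-rich and CpG-poor cases without one. Each is written 5' to 3' along the gene, with every CpG in capitals. They lie at chr5:135535915-135536214 on the minus strand (NEUROG1), chr4:112516131-112516430 on the minus strand (NEUROG2), chr4:93828503-93828802 on the plus strand (ATOH1), chr1:160366821-160367120 on the plus strand (NHLH1), chr2:181680468-181680767 on the minus strand (NEUROD1) and chr7:31340677-31340976 on the minus strand (NEUROD6).
NEUROG1: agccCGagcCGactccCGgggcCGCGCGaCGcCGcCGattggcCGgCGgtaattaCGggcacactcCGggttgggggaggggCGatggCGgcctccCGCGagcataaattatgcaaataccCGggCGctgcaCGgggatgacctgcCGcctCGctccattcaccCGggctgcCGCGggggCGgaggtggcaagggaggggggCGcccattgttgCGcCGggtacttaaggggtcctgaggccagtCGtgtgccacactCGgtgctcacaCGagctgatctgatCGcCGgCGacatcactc
NEUROG2: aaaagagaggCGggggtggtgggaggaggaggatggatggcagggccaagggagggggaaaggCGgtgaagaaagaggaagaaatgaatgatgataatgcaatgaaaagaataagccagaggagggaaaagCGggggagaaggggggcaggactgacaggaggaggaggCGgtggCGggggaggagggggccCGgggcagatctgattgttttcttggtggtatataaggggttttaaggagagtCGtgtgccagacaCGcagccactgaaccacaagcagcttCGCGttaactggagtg
ATOH1: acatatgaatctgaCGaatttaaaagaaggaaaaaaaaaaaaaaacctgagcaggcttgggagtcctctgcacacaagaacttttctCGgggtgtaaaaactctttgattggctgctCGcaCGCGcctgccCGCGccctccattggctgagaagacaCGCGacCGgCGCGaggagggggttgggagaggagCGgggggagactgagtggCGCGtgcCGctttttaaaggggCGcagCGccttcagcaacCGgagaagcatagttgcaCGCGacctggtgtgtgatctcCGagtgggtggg
NHLH1: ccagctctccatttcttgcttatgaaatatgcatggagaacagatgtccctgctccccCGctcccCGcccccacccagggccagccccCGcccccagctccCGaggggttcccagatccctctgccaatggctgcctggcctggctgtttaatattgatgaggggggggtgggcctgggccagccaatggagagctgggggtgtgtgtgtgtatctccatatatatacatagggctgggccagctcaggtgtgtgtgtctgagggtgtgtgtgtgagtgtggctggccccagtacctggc
NEUROD1: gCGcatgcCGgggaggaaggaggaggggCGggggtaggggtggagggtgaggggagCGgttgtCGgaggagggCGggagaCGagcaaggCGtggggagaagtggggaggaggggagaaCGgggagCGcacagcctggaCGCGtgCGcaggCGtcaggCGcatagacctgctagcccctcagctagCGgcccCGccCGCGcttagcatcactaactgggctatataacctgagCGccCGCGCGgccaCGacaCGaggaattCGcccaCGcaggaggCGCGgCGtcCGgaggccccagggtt
NEUROD6: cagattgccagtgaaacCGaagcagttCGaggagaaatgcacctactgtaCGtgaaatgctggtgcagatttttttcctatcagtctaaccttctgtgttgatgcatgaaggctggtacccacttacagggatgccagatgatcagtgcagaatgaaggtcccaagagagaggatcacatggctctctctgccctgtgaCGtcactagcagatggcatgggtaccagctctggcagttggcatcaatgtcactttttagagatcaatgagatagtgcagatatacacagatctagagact

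None of the 8 promoter stretches overlapped a KDM2A peak, against 19.2% of all 35116 such entries, and the closest peak was 176 bp away at NHLH1. NEUROG1 held 35 CpG, NEUROD1 31, ATOH1 22, NEUROD2 19, NEUROG2 10, NEUROD4 7, and NEUROD6 and NHLH1 4 each, against a median of 14. CpG number did not order the genes by peak distance, because NHLH1 with 4 CpG had a peak within 1 kb and NEUROD1 with 31 had none. Over all promoter entries, a KDM2A peak within 1 kb was found for 39.0% of those with 0 to 5 CpG and 56.8% of those with 26 or more.

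The E-box CANNTG, which reads the same on both strands, occurred in 5 of the 8 promoter stretches and in 68.7% of all entries. Its form CAGATG, searched on both strands and contained in the CANNTG count, occurred in 3 of 8, at NEUROD2, NEUROD6 and NHLH1, and in 14.7% of all entries. These are letter matches in a window of 300 bases.

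Genes that act with the proneural factors were taken from 4 lists, chosen with earlier results of these data known. Of these 33 genes, 10 had a KDM2A peak with an FDR under 0.05 in their windows, beside the 38.0% of all protein-coding genes given above. Among 11 other neural bHLH activators the count was 3, and the highest folds were 3.68 at PTF1A of pancreas and cerebellum, 3.59 at ASCL2 and 3.37 at ATOH8. All 3 genes of the E protein partners had such a peak, with 5.80 inside TCF12, 3.99 beside TCF4 and 3.48 inside TCF3. TCF12 and TCF4 are long genes with 48 and 45 peaks in their windows, of which 1 and 2 had an FDR under 0.05. A window with many peaks has more chances to hold such a peak, and the 38.0% is not adjusted for this. Peak density at TCF12 and TCF4, 1.16 and 0.992 per 10 kb, was below the median of all protein-coding genes.

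Among 9 inhibitors, the Notch effectors HES and HEY and the ID proteins that sequester E proteins, 3 had a peak with an FDR under 0.05. HES1, the repressor that Notch induces, had 3 such peaks, with a highest fold of 4.19 and an FDR of 0.00160, 8614 bp from the gene. ID4 reached 3.59 and HEYL 3.38. Among 10 Notch ligands, receptors and proneural targets, 1 did, EOMES, the factor of intermediate cortical progenitors, with a fold of 3.79 and an FDR of 0.0214. The next in that list were DLL3 with 3.23 and JAG1 with 3.19, with an FDR of 0.0997 and 0.102. H3K36me2 regions lay in the windows of 4 of the 33 genes in sh1, 8 in sh4 and 8 in the control. The share over all protein-coding genes was 22.9% in sh1, 21.5% in sh4 and 30.2% in the control. TCF12, TCF4 and DCX, a microtubule protein of migrating neurons, had a region in all 3 libraries. These counts were not adjusted for the length of the windows.

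An H3K36me2 region lay within a gene's window for 2 of 8 genes in sh1, 0 of 8 in sh4 and 1 of 8 in the control. The same count over all protein-coding genes was 22.9% in sh1, 21.5% in sh4 and 30.2% in the control, and over the short ones 7.34%, 6.65% and 11.9%. With 8 genes and 1 library each, these counts are too small to separate the libraries.

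The 3 cases were NEUROD1 and NEUROD4 in sh1 and ATOH1 in the control. At NEUROD1, an sh1 region of 3400 bp at 181665001 to 181668400 crossed the 3' end and covered 106 bp, or 0.867%, of the gene. That overlap is shorter than 1 step of the 200 bp grid of these regions, and the region's midpoint lay 1.6 kb from the gene. The region rested on 106 IP reads and 64 input reads, a fold of 1.64 with a counting interval of 1.19 to 2.27. Like every listed region, it was kept for a low FDR on these same reads, so such intervals are no separate support for enrichment. NEUROD1 in sh1 was the single overlap of a region with a gene body, 1 of 8 genes in sh1, 0 of 8 in sh4 and 0 of 8 in the control. All protein-coding genes had such an overlap in 16.2% of cases in sh1, 15.4% in sh4 and 20.0% in the control, and the short ones in 1.24%, 0.948% and 1.85%. At NEUROD4, an sh1 region of 3800 bp lay 12.8 kb downstream with a fold of 1.71 (1.27 to 2.33; 123 IP and 71 input reads). At ATOH1, a control region of 4400 bp lay 18.6 kb upstream, with a fold of 1.72 (1.34 to 2.22; 173 IP and 99 input reads). Each of the 3 was found in a single library, and none in all 3. Few regions were shared over the whole lists either. Of all sh1 regions, 15.6% overlapped a control region and 17.6% an sh4 region, and of all sh4 regions 12.7% overlapped a control region.

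The nearest H3K36me2 region lay at a median of 128 kb from the proneural genes in sh1, 76.4 kb in sh4 and 39.0 kb in the control. Short protein-coding genes lay at 392 kb in sh1, 433 kb in sh4 and 182 kb in the control, and all protein-coding genes at 182 kb, 213 kb and 80.6 kb. The median of the proneural genes was below that of all protein-coding genes in each library, with no test, and NEUROD2 lay farther than the median of all protein-coding genes in all 3 libraries. The control had the shortest median in each set of genes. Both hairpins share 1 control library, so they are not independent comparisons with it.

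NEUROG1 lay 153 kb from its nearest region in sh1, 541 kb in sh4 and 185 kb in the control, with the sh1 and control regions both in SLC25A48. NEUROG2 lay 43.7 kb from a region in sh1, 68.3 kb in sh4 and 53.5 kb in the control, all on its 3' side. Both neurogenins were farthest from H3K36me2 in sh4, and so was NEUROD1. At NEUROG1 this order turned when only regions with a fold above the control list's median were kept, with 930 kb in sh1, 541 kb in sh4 and 341 kb in the control. ATOH1 lay 132 kb from a region in sh1, 45.2 kb in sh4 and 18.6 kb in the control, all on its 5' side.

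NEUROD1 lay 0 kb from its nearest region in sh1, 109 kb in sh4 and 21.1 kb in the control, the sh4 and control regions being in CERKL, a ceramide kinase-like gene. NEUROD2 lay 2075 kb from a region in sh1, 2050 kb in sh4 and 294 kb in the control, the most isolated of the 8 in every library. NEUROD4 lay 12.8 kb from a region in sh1, 29.6 kb in sh4 and 70.2 kb in the control, the single case in which both hairpins were nearer. Among regions with a fold above the control list's median, NEUROD4 lay 12.8 kb away in sh1, 51.8 kb in sh4 and 244 kb in the control. NEUROD6 lay 124 kb away in sh1, 69.9 kb in sh4 and 24.5 kb in the control. NHLH1 lay 214 kb away in sh1, 83.0 kb in sh4 and 23.0 kb in the control. The same fold limit put NHLH1 at 214 kb in sh1, 383 kb in sh4 and 23.0 kb in the control, which turned the order of the hairpins.

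The nearest region was thus farther in both hairpins than in the control at 4 of 8 genes, NEUROD2, NEUROD6, ATOH1 and NHLH1, and nearer in both at NEUROD4. Over all protein-coding genes it was farther in both for 49.3% and nearer in both for 15.0%, so the proneural counts were close to the background. NHLH1 lies on the long arm of chromosome 1, where regions beyond 140 Mb covered 3.13 Mb in sh1, 15.5 Mb in sh4 and 3.74 Mb in the control. The nearest sh4 region to NHLH1 was still farther than the control one. The folds of the nearest regions ran from 1.26 to 1.96 in sh1, 1.33 to 2.32 in sh4 and 1.49 to 1.93 in the control.

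**Figure D3:**
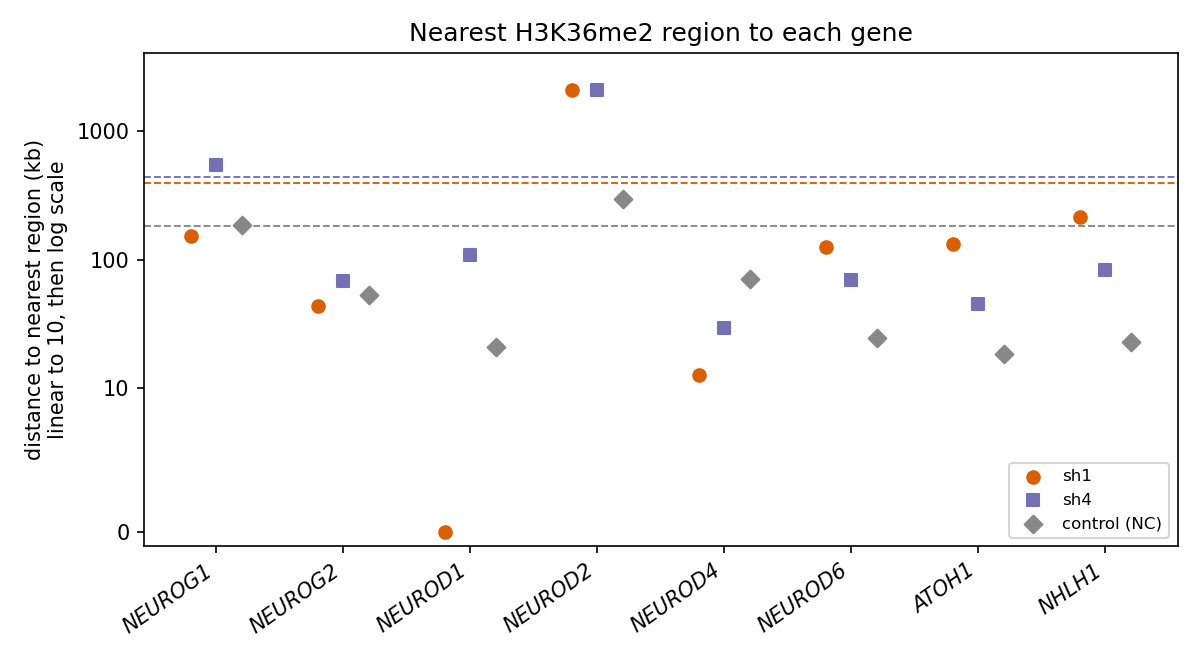
Distance in kb from each of the 8 genes to its nearest H3K36me2 region in sh1 (circles), sh4 (squares) and control (diamonds), on an axis that is linear to 10 kb and logarithmic above. Dashed lines give the median of the short protein-coding genes in the library of the same colour, 392, 433 and 182 kb, and NEUROD2 is far from any region in both hairpins.

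A wider view, chosen after the values had been seen, counted regions within 500 kb of each gene. The 8 genes summed to 49 regions in sh1 (exact Poisson interval 36.3 to 64.8), 55 in sh4 (41.4 to 71.6) and 73 in the control (57.2 to 91.8), and these covered 242 kb in sh1, 287 kb in sh4 and 336 kb in the control. The intervals overlap, which is no test of a difference, and they treat regions as independent and cover counting error only. The median per gene was 2.5, 4 and 7.5 regions in sh1, sh4 and control, against 2, 2 and 4 over all protein-coding genes. Over the short protein-coding genes it was 1, 1 and 2 in the same order. Counts were below the control in both hairpins for 5 of the 8 genes, and for 46.9% of all protein-coding genes.

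NEUROD6 differed most between the libraries, with 3 regions in sh1 (0.619 to 8.77), 4 in sh4 (1.09 to 10.2) and 17 in the control (9.90 to 27.2). They covered 25 kb in sh1, 20.2 kb in sh4 and 71.1 kb in the control. The control regions had a median fold of 1.63 and lay in MINDY4, AQP1, ITPRID1 and PDE1C and, for 8 of the 17, outside protein-coding genes. Of all protein-coding genes 977 had at least 17 control regions within 500 kb, and 5 of them, NEUROD6 included, had at most 4 in each hairpin. NEUROD6 was singled out here because of its counts, so this is a description. When only regions with a fold above the control list's median were kept, NEUROD6 had 1 region in sh1, 2 in sh4 and 9 in the control.

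The 7 other genes spanned from 0 to 19 regions. NEUROD1 had 19 regions in sh1, 18 in sh4 and 15 in the control, and NEUROG2 had 17, 13 and 15 in the same order. ATOH1 had 5 in sh1, 13 in sh4 and 9 in the control. NEUROG1 had 2, 0 and 4 regions in sh1, sh4 and control, NEUROD4 had 2, 3 and 6, NHLH1 had 1, 4 and 6, and NEUROD2 had 0, 0 and 1.

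**Figure D4:**
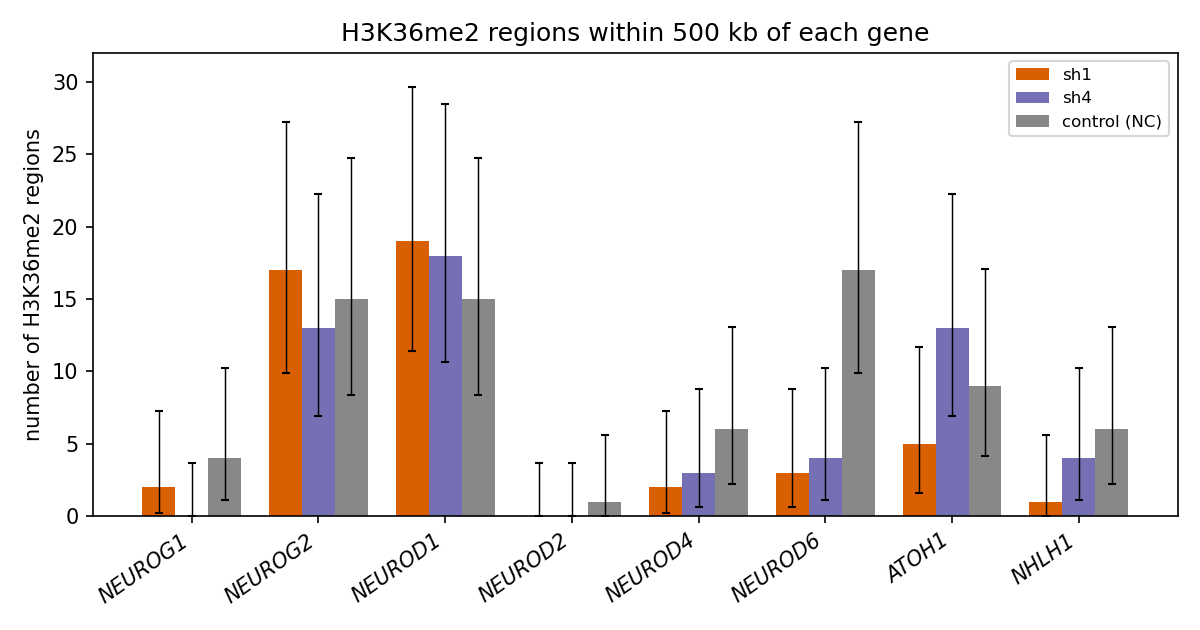
Number of H3K36me2 regions within 500 kb of each of the 8 genes in sh1, sh4 and control (bars, left to right), with exact 95% Poisson intervals. NEUROG2 and NEUROD1 have 13 or more regions in every library, and NEUROD6 has 3, 4 and 17.

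Overlap between libraries was low near the proneural genes and over the whole lists alike. Of the 49 sh1 regions within 500 kb, 6 overlapped a control region (12.2%, against 15.6% over the whole sh1 list), and 6 overlapped an sh4 region (12.2%, against 17.6%). Of the 55 sh4 regions, 9 overlapped a control region (16.4%, against 12.7% over the whole sh4 list). At NEUROG2 and NEUROD1, where all 3 libraries held many regions, 4 sh4 regions at each gene overlapped a control region, out of 13 and 18. Of the sh1 regions, 2 of 17 at NEUROG2 and 3 of 19 at NEUROD1 overlapped a control region. An sh4 region was overlapped by 1 of 17 and 3 of 19.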

How the data were processed

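ChIP-seq peak lists of 4 libraries were used, and their inputs were not used as libraries of their own. Per the submitters' processing notes, hg38 (GRCh38) was the build, and Bowtie 1.1.2, SICER and MACS2 were among the tools, whose roles are not given in the sources used here. Per the file headers, the deposited fold is a linear ratio of IP to background and the deposited p-value and FDR belong to each peak or region. The KDM2A list adds the authors' pileup, a signal whose scaling is not given in the sources used here. The deposited score of H3K36me2 regions was not used. H3K36me2 starts lie on a 200 bp grid counted from 0 and were moved to 1-based coordinates.

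From these lists, peaks that overlap a gene and 20 kb flanks were counted, with distances to the gene or its RefSeq start (GRCh38.p14). Genes of other sequences listed under a chromosome's name (679) were left out. IP and input read counts of H3K36me2 regions were recovered from fold and p-value. In 600 regions per library, 100% of input counts came out within 0.01 of whole numbers. The KDM2A list gives no depth, so its peaks carry no counting interval. Fold intervals are exact binomial (95%), those of region numbers exact Poisson, and both cover counting error only, since PCR copies are not independent molecules. Python 3.11.15, pandas 2.3.3 and SciPy 1.17.1 were used, and the overlap and read-recovery steps were tested on simulated data.

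All 8 genes are named, together with up to 3 further genes per list (highest KDM2A fold), the marker genes, DCX (added after its values were seen), and genes lying in the windows or under the regions described. Members and lists were chosen with earlier results of these data known. Alternatives were flanks of 10 and 50 kb, limits on FDR or fold, and midpoints in place of overlaps. Some annotations are not reported here.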

Additional observations from a re-analysis of the deposited data

How the results depend on the processing

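No paired analysis was possible because each group holds 1 library. The number of KDM2A peaks over the 8 windows, 83, was 54 with 10 kb flanks, 177 with 50 kb flanks, 3 with an FDR under 0.05, 6 with a fold of at least 3 and 81 by midpoint. With an FDR under 0.01, 0 of the 8 genes had a peak, so the calls at NEUROG1, ATOH1 and NEUROD1 rest on FDR values between 0.0234 and 0.0461. The count was 3 with 10 kb flanks and 4 with 50 kb. Genes with an H3K36me2 region numbered 1 in sh1, 0 in sh4 and 0 in the control with 10 kb flanks. With 50 kb flanks they numbered 3 in sh1, 2 in sh4 and 4 in the control, so the order of sh1 and the control turned. By region midpoint the control count was 0. Regions within 500 kb became 23 in sh1, 22 in sh4 and 36 in the control within 250 kb, and 33, 36 and 42 above the control list's median fold. These last alternatives were chosen after seeing the data, and the control kept the highest number in each. The median distance to H3K36me2 stayed shortest in the control under both alternatives tried, at 39.2 and 40.4 kb. With that fold limit, single distances moved by over 1.5 times for NEUROG1, NEUROD4 and NHLH1, as given beside their values. The limit, a fold of 1.59, removed the nearest region in each of these cases. At NEUROG1 the removed regions had folds of 1.43 in sh1 and 1.56 in the control. At NEUROD4 they had 1.40 in sh4 and 1.53 in the control, and at NHLH1 1.33 in sh4. Why these regions had low folds was not tested. The nearest regions rest on 91 to 683 IP reads each, and the KDM2A peaks have pileups of 5 to 12.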
